A study of Vigna radiata with 18 samples.

Results

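Lone open sites are single ATAC-seq peaks that stand far from any other peak although the megabase around them is rich in peaks. They were chosen here from the positions of the consensus peaks of mung bean (Vigna radiata) leaf. A peak counted as lone when it was under 1000 bp wide and lay 15000 bp or more from its neighbour on either side, and its centre had to fall in a 1 Mb bin, counted from position 0, that held 80 or more peaks. By this rule 1296 of 50238 peaks were lone, 2.58% of the list and 2.86% of the 45299 peaks in the 400 peak-rich bins. Width, gaps and peak number chose them, so these values are given as a description, apart from the spread of widths below 1000 bp, which the limit of 1000 bp leaves free.

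The study took leaves of wild-type plants of the cultivar Weilv 9 grown in nutrient solution. In T1, the pre-conditioned treatment, plants had 100 mM NaCl for 24 h, 48 h of recovery without NaCl and then 100 mM NaCl again. In T2, the direct treatment, plants had 100 mM NaCl with no earlier bath. Each treatment was sampled at 0, 6 and 48 h of the last bath, with 3 libraries for each of the 6 groups and 18 in all. Nuclei came from frozen leaf per the protocol in the labels, which give protoplast as the cell type, and neither could be checked against marker genes. The deposited list gives a chromosome, a start and an end for each peak and no value for any library, so T1 and T2 and the 3 times could not be compared for these sites. Depth behind a peak is unknown, and the genome build is not given in the sources used here.

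In ATAC-seq the transposase Tn5 cuts DNA that nucleosomes leave uncovered, and a pile of cuts is called as a peak. In plant leaves such sites are best known at promoters and just past gene ends, and a smaller class lies far from genes, where some act as distal enhancers or silencers. Whether a lone site is a promoter or a distal element was not determined, since no gene models or sequence of the list's build were used.

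Lone sites lay in wide stretches without another peak, as the rule requires. The smaller of the 2 gaps beside a lone peak had a median of 18.4 kb, with quartiles of 16.3 and 22.2 kb. The larger gap had a median of 27.0 kb, with quartiles of 21.7 and 37.2 kb. Over the whole list the median gap between neighbours was 5.77 kb, and 17.4% of 50227 gaps reached 15 kb. From neighbour to neighbour, the stretch around a lone peak measured 46.8 kb in the median, with quartiles of 39.6 and 59.8 kb. The stretches joined covered 64.6 Mb, and the lone peaks filled 0.67% of them. All peaks of the peak-rich bins filled 4.08% of the bins' length.

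Most lone peaks sat only just past the limit. In 832 of 1296, or 64.2%, the smaller gap was under 20 kb. In 84 it was 30 kb or more and in 11 it was 50 kb or more. The larger gap was at most 2 times the smaller in 82.1% of lone peaks, which the common lower limit of 15 kb favours, and across the 1296 the gap before and the gap after were nearly unrelated in rank (Spearman rho 0.069). A gap of 100 kb or more lay beside 29 of them. Around the limit, 258 peaks with a smaller gap of 15 to 16 kb had a median width of 301.5 bp, and 284 peaks at 14 to 15 kb, just outside, had one of 279 bp.

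Ranked by the smaller gap, the most isolated lone peak of the peak-rich bins was one of 137 bp on chromosome 2 (23709498 to 23709634). It had 161 kb free of peaks before it and 143 kb after it. Its neighbour on the left was also among the 5 most isolated, a peak of 892 bp at 23547728 to 23548619, with 88.7 kb free before it. On chromosome 3, a peak of 180 bp at 20977826 to 20978005 had 125 kb before it and 140 kb after it. On chromosome 9, a peak of 278 bp at 18077576 to 18077853 had gaps of 260 and 119 kb. The fifth was a peak of 194 bp on chromosome 8 (45308543 to 45308736), between gaps of 73.3 and 69.9 kb. Of these 5 peaks, 4 were narrower than the median lone peak of 279.5 bp. They lay between 46.0% and 68.2% of the span of their chromosomes, in bins of 82 to 112 peaks.

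Beyond the cleared 15 kb, the surroundings of lone sites soon filled up. At 15 to 20 kb from the edge of the peak, there were 10.3 peaks per 100 kb ± 1.18 around lone peaks and 11.3 ± 0.45 around other peaks of the same bins (SD, n = 11 chromosomes). At 20 to 30 kb the values were 10.2 ± 0.63 around lone peaks and 11.2 ± 0.59 around the others, and the density was lower around lone peaks on 11 of 11 chromosomes. At 30 to 50 kb it was lower on 7 of 11, with 10.6 ± 0.91 around lone peaks and 11.0 ± 0.62 around the others. From 50 to 100 kb the densities were 10.7 ± 0.49 around lone peaks and 10.8 ± 0.53 around the others, lower on 6 of 11 chromosomes. From 200 to 500 kb the order was turned round, with 10.9 ± 0.52 around lone peaks and 10.7 ± 0.49 around the others, and the density was lower around lone peaks on 1 of 11 chromosomes. The rule fixes the empty 15 kb and the bin's total, so the profile is a description with no test. Other peaks were weighted so that each bin counted by its number of lone peaks.

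**Figure D1:**
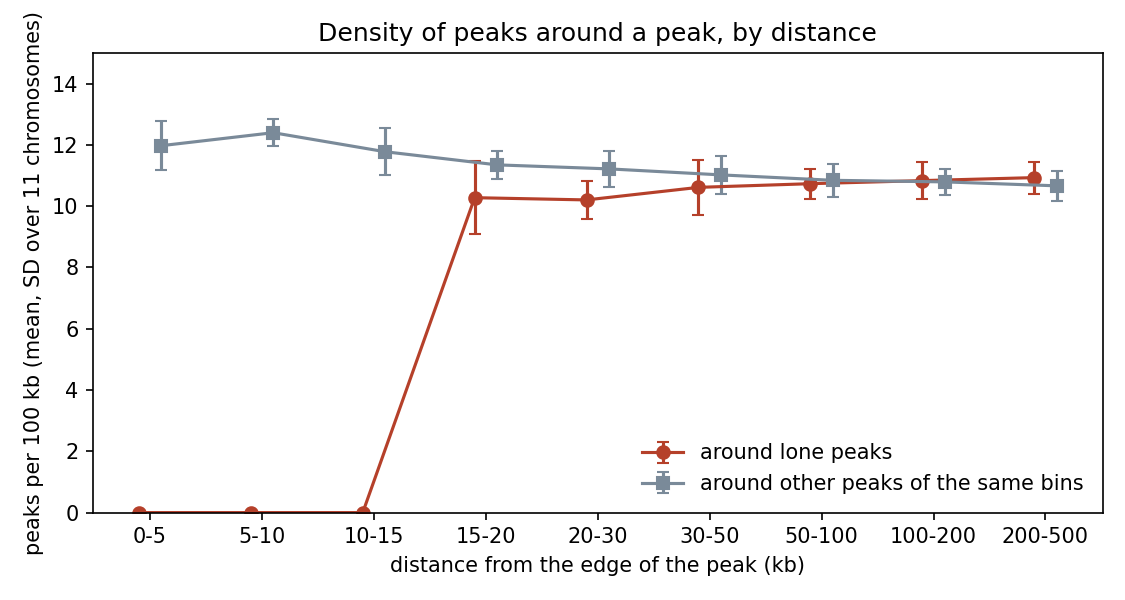
Peaks per 100 kb (vertical axis) by distance from the edge of a peak in kb (horizontal axis), around lone peaks (circles) and around other peaks of the same bins (squares), as means with SD over 11 chromosomes. The density around lone peaks is 0 up to 15 kb by the rule, 10.2 at 20 to 30 kb against 11.2 around the others, 10.7 against 10.8 at 50 to 100 kb, and 10.9 against 10.7 at 200 to 500 kb.

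After a long gap, the next gap was again long slightly more often than after a short gap, which is given with no test. Of the peaks in peak-rich bins that had a gap of 15 kb or more before them, 18.1% also had one after them. Of those with a shorter gap before them, 15.7% had a long gap after them. The first share was the higher on 8 of 11 chromosomes, with a mean difference of 2.20 percentage points ± 2.70 (SD, n = 11). Chromosomes 4, 6 and 9 went the other way. Long gaps on both sides were found at 2.93% of these peaks, of any width, and the product of the shares on each side is 2.60%. These counts include the 29 peaks that were too wide for the rule.

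Most lone peaks had no other lone peak beside them. Of the 1296, 860 had no other of the 1296 as a neighbour, and 436 (33.6%) stood next to another across a shared gap. Lone sites of 1000 bp or more, or in bins below the peak limit, were not counted as lone neighbours here. There were 170 pairs, 24 rows of 3 and 6 rows of 4, and none longer. The rows of 4 lay on chromosomes 2, 4, 5, 6 and 8, with a pair of them on chromosome 5. The row on chromosome 5 at 14987353 to 15213590 was the emptiest, with 126 kb before its first peak, gaps of 21.0, 47.3 and 156 kb inside it and 57.1 kb after its last peak, whose widths were 690, 234, 665 and 429 bp in order. The row on chromosome 2 at 30802955 to 30877698 held narrower peaks of 164, 217, 220 and 402 bp. In 18.8% of cases the far side of a lone peak's neighbour was again a gap of 15 kb or more. For peaks with a long gap on a single side, the same share across that gap was 18.1%. These shares were close, so having a lone neighbour is not read as a trait of lone peaks.

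Every chromosome held lone peaks, and 373 of the 400 peak-rich bins had at least 1. A bin held 3.24 ± 2.01 on average (SD over bins) and 3 in the median. By chromosome the share of lone peaks among the peaks of peak-rich bins ran from 2.21% on chromosome 6 (100 of 4517) to 4.38% on chromosome 5 (112 of 2559). Chromosome 3 had 3.49% and chromosome 10 had 3.29%, and the other chromosomes lay between 2.30% and 2.94%. Chromosome 8, with the most peaks, also had the most lone ones, 202, at a share of 2.47%. Fullness of the bins differed as well, with 2559 peaks in 26 peak-rich bins on chromosome 5 and 4517 in 39 on chromosome 6. The share depends on fullness under this rule, and chromosomes were not compared at equal fullness.

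The fuller the bin, the smaller the share of its peaks that stood alone, and since the rule uses both gaps and peak number this is a description. Lone peaks made up 6.01% of the peaks in bins with 80 to 89 peaks (189 of 3143), 3.43% in bins with 100 to 109 (293 of 8544), and 1.19% in bins with 140 or more (66 of 5529). Even the densest class averaged 1.78 lone peaks per bin, and 29 of its 37 bins held one. Below the limit of 80 peaks per bin, 482 of 4939 peaks (9.76%) were lone and under 1000 bp. At the limit itself, 101 lone peaks in bins of 80 to 84 peaks had a median width of 278 bp and 75 in bins with at least 75 but fewer than 80 peaks, just outside, had one of 269 bp.

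**Figure D2:**
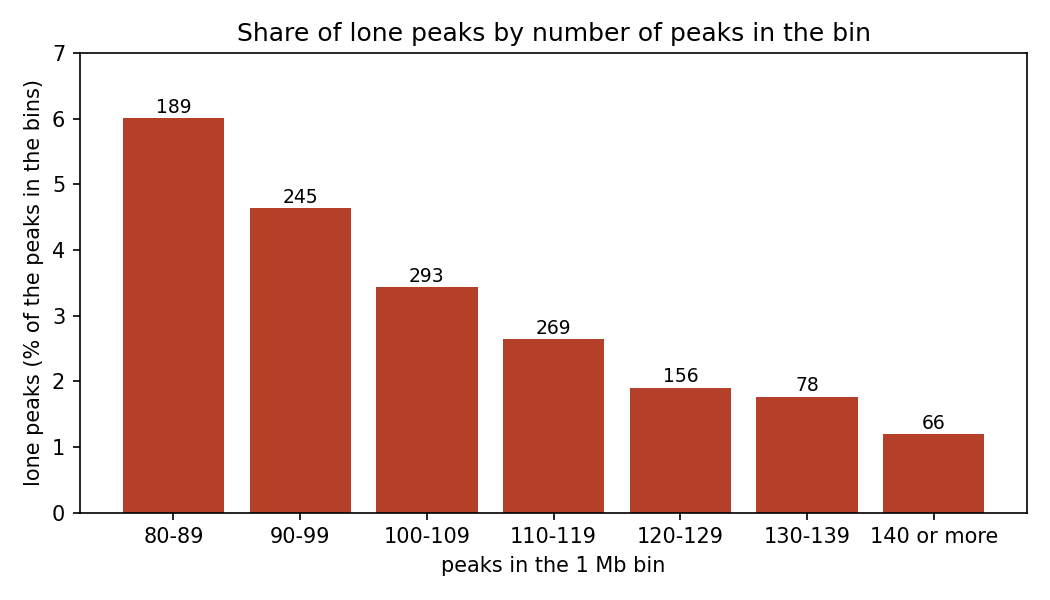
Lone peaks as a percentage of all peaks (vertical axis) in 1 Mb bins grouped by their number of peaks (horizontal axis), with the number of lone peaks above each bar. The share falls from 6.01% in bins with 80 to 89 peaks to 1.19% in bins with 140 or more.

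The bin with most lone peaks was on chromosome 7 at 17000001 to 18000000, where 11 of 97 peaks were lone. Their widths ran from 143 to 637 bp with a median of 282 bp, and the other 85 peaks of the bin under 1000 bp had a median of 277 bp. The gaps beside these 11 ran from 16.9 to 49.5 kb, and 4 of the gaps had a lone peak at either end. The fullest bin of the list, on chromosome 11 at 2000001 to 3000000, had 174 peaks and 1 lone one. That peak was 283 bp wide, at 2969640 to 2969922, with 16.0 kb free before it and 19.3 kb after it. The next fullest bin, on chromosome 6 at 44000001 to 45000000, had 169 peaks and no lone one.

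Lone peaks were spread along the chromosomes much like the other peaks of peak-rich bins. Of the peaks of peak-rich bins, 2.75% were lone in the outer part of a chromosome (20% of its span at either end), 3.14% in the intermediate part and 2.48% in the central 20%. Over chromosomes these shares averaged 2.84% ± 0.99, 3.17% ± 0.75 and 2.58% ± 0.92 (SD, n = 11). The parts were not compared within each chromosome, and their differences were not tested. The outer part had a median of 121 peaks in the bin of a peak, the intermediate part 110 and the central part 117. The share of lone peaks was highest in the intermediate part, where bins were least full. The central part did not follow this order, with less full bins than the outer part and a lower share. In the 68 peak-rich bins that adjoin a bin below the limit of 80, 3.29% of peaks were lone, and in the other 332 bins 2.78%. Bins that adjoin a sparser one were also less full, with a median of 103.5 peaks against 114 in the rest.

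Lone peaks did not pass the test for a difference in width from the other peaks of such bins. The middle lone peak was 279.5 bp wide, with quartiles at 195 and 419 bp, and the median of the 42946 other peaks under 1000 bp in the 400 bins was 288 bp, with quartiles at 200 and 432 bp. Medians over chromosomes averaged 278 bp ± 21.7 for lone peaks and 287 bp ± 6.11 for the others (SD, n = 11). The difference was -9.00 bp ± 22.6, with a 95% interval of -24.0 to 6.50 bp, and p was 0.239 in an exact permutation test, two-sided, that flips the signs of the 11 chromosome differences. Lone peaks were narrower on 7 chromosomes and wider on 4. Chromosomes come from a single list and do not replicate plants or libraries, and the interval holds the shifts that the same test does not reject.

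**Figure D3:**
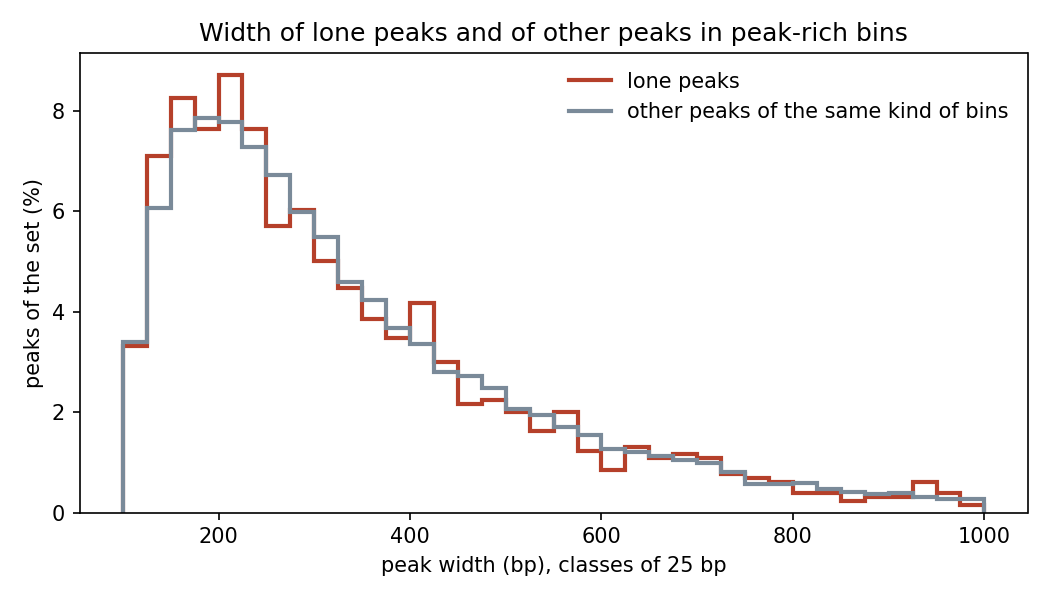
Share of peaks in percent (vertical axis) by peak width in classes of 25 bp (horizontal axis), for 1296 lone peaks and 42946 other peaks under 1000 bp in peak-rich bins. The lines follow each other closely, with medians of 279.5 bp for lone peaks and 288 bp for the others.

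The narrow and wide ends of the distribution were close as well. Peaks under 150 bp made up 10.4% of lone peaks (135 of 1296) and 9.46% of the others. Peaks of 500 bp or more made up 17.2% of lone peaks and 17.9% of the others. Among all lone sites of peak-rich bins, 29 of 1325 (2.19%) reached 1000 bp and so fell outside the rule, against 1028 of 43974 (2.34%) of the sites that were not lone. Just inside the width limit, 19 lone peaks were 900 bp wide or more, and just outside it 13 lone sites exceeded or met it by less than 100 bp.

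The 5 narrowest lone peaks measured 106 to 109 bp, on chromosomes 8, 11, 7, 3 and 6. The shortest was at 35191513 to 35191618 on chromosome 8, between gaps of 20.2 and 19.3 kb. The 5 widest measured 960 to 993 bp, on chromosomes 6, 10, 10, 11 and 4. The widest, at 26325879 to 26326871 on chromosome 6, had 166 kb free before it and 20.1 kb after it. Wide sites were thus also found alone, and the widest of the 29 over the limit, 1854 bp at 18456754 to 18458607 on chromosome 6, stood between gaps of 21.9 kb on both sides.

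Chromosomes differed in the direction of the width difference. On chromosome 7, 156 lone peaks had a median of 247.5 bp and the others one of 295 bp. On chromosome 4 the medians were 259 bp for 80 lone peaks and 295 bp for the others, and on chromosome 5 they were 250 bp for 112 lone peaks and 278 bp for the others. Chromosome 6 was opposite, with 318 bp for 100 lone peaks and 288 bp for the others. On chromosome 8, with the most lone peaks, the medians were 288 bp for lone peaks and 288.5 bp for the others. The quartile ranges of lone and other peaks overlapped on every chromosome, and they show the spread of single peaks. They do not measure the error of a median, and no chromosome was tested by itself.

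**Figure D4:**
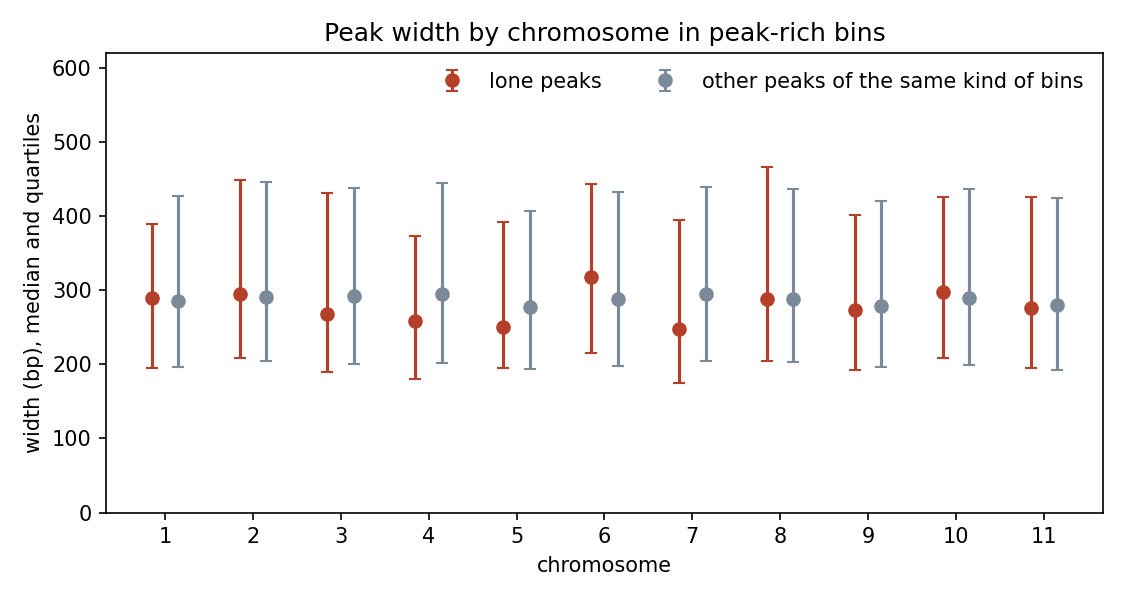
Median peak width in bp with its quartiles (vertical axis) on each of 11 chromosomes (horizontal axis), for lone peaks on the left and other peaks under 1000 bp of peak-rich bins on the right. Lone peaks have the lower median on 7 chromosomes (247.5 against 295 bp on chromosome 7) and the higher one on 4 (318 against 288 bp on chromosome 6).

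Among the 1296 lone peaks of peak-rich bins, the more isolated ones had the lower median width, which is given with no test of its own. The 464 with a smaller gap of 20 kb or more had a median width of 268 bp, with quartiles of 189 and 406 bp, and the 832 at 15 to 20 kb had one of 288 bp. The median was lower in the more isolated set on 10 of 11 chromosomes, with a mean difference of -26.5 bp ± 28.8 (SD), the exception being chromosome 1. At 20 to 30 kb the median was 270.5 bp (380 peaks) and at 30 kb or more 266.5 bp (84 peaks). In that last class 10.7% of peaks reached 500 bp, and 18.5% did so at 15 to 20 kb. For lone peaks under 1000 bp in bins below the peak limit, this share was instead highest at 30 kb or more. It was 14.1% at 15 to 20 kb (206 peaks), 13.3% at 20 to 30 kb (143 peaks) and 17.3% at 30 kb or more (133 peaks). Their median width did not fall steadily, with 257.5, 273 and 243 bp in the same classes. Across all 1296 lone peaks, the rank correlation of width with the smaller gap was only -0.041.

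With the limit set at 20 kb in place of 15 kb, the difference from other peaks was -22.9 bp ± 23.5 (95% interval -38.9 to -6.76, exact sign-flip permutation p = 0.0117), lower on 9 of 11 chromosomes. Adjusted by Benjamini-Hochberg over 13 fits of this family, this permutation p became 0.152 and did not pass. The 13 leave out a planned fit that set a mean against a median, and with it, over 14 fits, the permutation p became 0.082 and did not pass either. With the limit at 10 kb, the difference was 3.73 bp (exact permutation p = 0.226). Over all peaks of peak-rich bins, median width did not fall steadily with isolation. It was 296 bp for peaks within 500 bp of a neighbour, 280 bp at 2 to 5 kb, 293 bp at 5 to 10 kb and 296 bp at 10 to 15 kb, before the lower values past 20 kb.

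**Figure D5:**
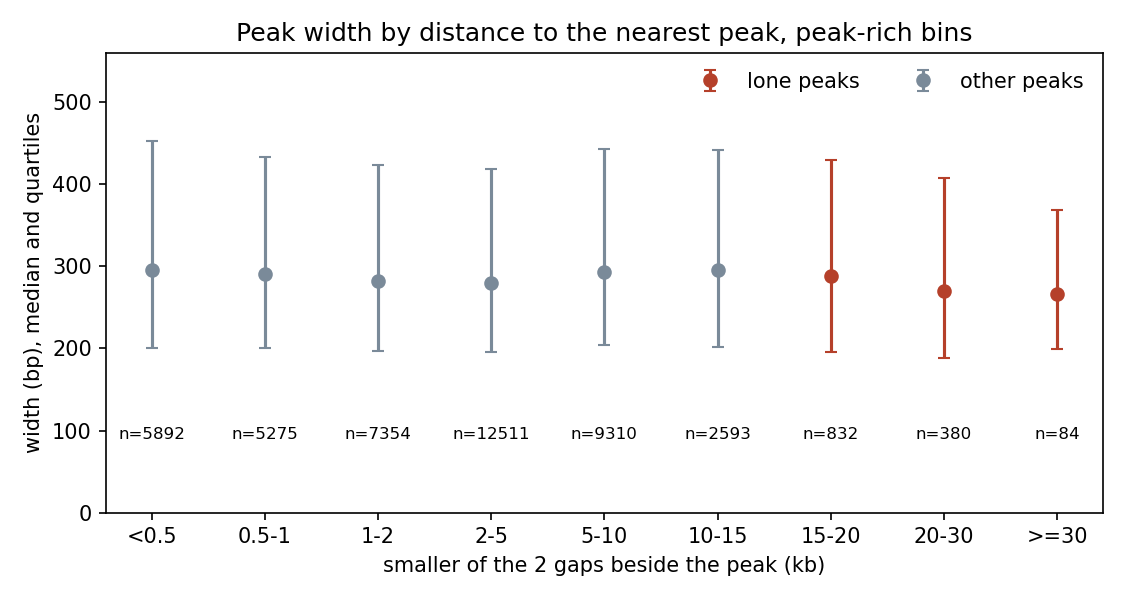
Median width in bp with quartiles (vertical axis) of peaks under 1000 bp in peak-rich bins, by the smaller of the 2 gaps beside the peak in kb (horizontal axis), with the number of peaks in each class. Lone peaks are the 3 classes on the right, with medians of 288, 270.5 and 266.5 bp, and the classes of other peaks lie between 280 and 296 bp.

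The bins next door went with width too. Lone peaks in bins that adjoin a bin of fewer than 80 peaks had a median of 251 bp (234 peaks), and lone peaks in the other bins had one of 286.5 bp (1062 peaks). For peaks that were not lone the medians were 278 bp beside a sparser bin and 290 bp elsewhere. Away from sparser bins, lone peaks with a smaller gap of 20 kb or more still had a lower median, 273 bp (367 peaks), than those at 15 to 20 kb, 291 bp (695 peaks). Beside sparser bins the medians were 250 bp (97 peaks) and 252 bp (137 peaks). These classes were formed after widths had been seen and carry no test, and the part of the bins next door in the width of lone peaks was not tested.

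Lone peaks outside the peak-rich bins had a lower median width than those inside them. The 482 in sparser bins had a median of 260 bp, with quartiles of 183 and 394 bp. In the same sparser bins, the 4353 peaks that were not lone had a median of 276 bp. In peak-rich bins the medians were 279.5 bp for lone peaks and 288 bp for the others. Inside the peak-rich class, lone peaks had medians of 269 bp in bins of 80 to 99 peaks, 284 bp at 100 to 119 and 286.5 bp at 120 or more. Other peaks had medians of 286, 286 and 290 bp in those bins.

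Median width by position along the chromosome followed that of the other peaks. For lone peaks it was 283 bp in the outer part, 279.5 bp in the intermediate part and 266 bp in the central part. For the other peaks it was 298, 285 and 270 bp in the same parts. The outer part held 558 of the lone peaks, the intermediate part 554 and the central part 184. Lone peaks in pairs or longer rows had a median of 275.5 bp and single ones one of 281.5 bp. The 2120 neighbours of lone peaks that were not among the 1296 had a median of 301 bp. That median is over all widths, unlike the others given here. Of these neighbours 2.64% reached 1000 bp, and of all peaks in peak-rich bins 2.33% did.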

How the data were processed

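ATAC-seq peaks of mung bean leaf were read from one deposited consensus list, whose starts count from 0 and are given here from 1. Per the submitters' processing notes, the tools included fastp 1.0.1, Bowtie2, SAMtools 1.22.1, MACS3 3.0.3 and bedtools 2.28.0, and their roles, the peak threshold, the merging of libraries, the Tn5 offset and the genome build are not stated there. A threshold or a merging distance changes which peaks stand alone. The list holds 0 columns of a library, so depth is unknown and no replicate could be compared.

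Gaps run from edge to edge. Bins were placed by peak centres. The first and last peaks of chromosomes lack a neighbour and were not counted as lone. A chromosome's span ends at its last peak. Widths were compared per chromosome, as the median of lone peaks minus that of other peaks under 1000 bp in the 400 peak-rich bins, with an exact permutation test, two-sided, that flips the signs of the 11 differences (Python 3.11.15, numpy 2.4.6, pandas 2.3.3). The calculation was tested on simulated data. Alternatives changed the gap, bin, width limit, summary and peak set. The members, comparisons and alternatives were chosen with earlier results of these data known. Single peaks named are the 5 narrowest, widest and most isolated, and those of the bins with most peaks and most lone peaks. Rows of 4 and the widest peak over the limit were added after their values were seen. Peaks lay past the last gene of a VC1973A gene table on 11 of 11 chromosomes, so that table was not used and no gene or sequence is given.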

Additional observations from a re-analysis of the deposited data

How the results depend on the processing

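The width difference of -9.00 bp between lone and other peaks stayed between -11.7 and 3.73 bp, and short of the threshold, in 15 of 17 alternatives that kept all chromosomes, 4 of which were added after the data were seen (1 of the 15 is the mean log2 width, at -0.03). Leaving out each chromosome in turn gave -12.9 to -5.15 bp and 1094 to 1247 lone peaks. A gap of 20000 bp gave -22.9 bp, past the threshold before adjustment, and -27.1 to -19.4 bp with a chromosome left out. Setting each lone peak against the median of its own bin and averaging gave 43.2 bp, the opposite sign (exact permutation p = 0.000977). Widths are skewed, and other peaks scored in this way came out at 49.6 bp, so this alternative sets a mean against a median. With means on both sides the value was -5.44 bp and with medians -11.7 bp. The number of lone peaks was 3889 with a gap of 10000 bp, 464 with 20000 bp and 862 in bins of 100 or more peaks, and between 1130 and 1541 in the other alternatives that kept all chromosomes. No paired analysis was possible because each interval stands for all libraries together, so leaving out a replicate could not be tried either. Depth is unknown, and the part of coverage in where peaks stand alone was not tested.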
